A study of Mus musculus with 10 samples.

Results

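CD24medCD49fmed cells were compared with CD24medCD49fhigh cells, both sorted from the mouse mammary gland, on 6 of the 10 expression arrays of the series. The titles put 2 arrays in CD24medCD49fmed (replicates 2 and 3), 2 in Thy-1+CD24medCD49fhigh and 2 in Thy-1-CD24medCD49fhigh (replicates 1 and 2 of each). The other 4 arrays, of the luminal gates CD24highCD49fmed and CD24medCD49f-/low, entered the shared estimate of the variance and the check of the label. All cells came from untreated virgin FVB females aged 6 to 8 weeks. They were sorted in a double pass after staining for CD24, CD49f and Thy-1 and for the blood and vessel antigens CD45, CD31 and Ter119, with CD140α named in addition in the methods of the study. CD24 marks mammary epithelium and CD49f is integrin α6, the product of Itga6. Thy-1 (CD90) is a lipid-anchored surface protein, the product of Thy1. CD24medCD49fmed was not divided by Thy-1. The series describes it as myoepithelial, the Thy-1+ gate as holding stem cells and the Thy-1- gate as holding progenitors. The text of the study writes CD24lowCD49fmed for its myoepithelial gate, and whether the same gate is meant is not given in the sources used here. The labels do not state whether the 2 arrays of a population were made from different mice, so that p-values cover the spread between these arrays alone, which may be technical.

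The mammary epithelium is a bilayer. Luminal cells line the duct and make milk, and basal cells lie beneath them on the basement membrane. Most basal cells are contractile myoepithelial cells, which express smooth muscle actin and basal keratins and squeeze milk along the ducts, while cells able to regrow a gland after transplantation were found in the basal layer by their high CD49f. The comparison asks what separates the myoepithelial gate from the gates that hold these transplantable cells.

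Values below are centred log2 intensities, in which the mean of every probe set across the 10 arrays was set to 0, so a value of 1 is a doubling against that mean and no value is a level of expression. Probe sets of one gene were averaged, which gave 2932 features, of which 2560 were named genes. A difference is the mean of the CD24medCD49fmed arrays minus the mean of both CD24medCD49fhigh populations, given with its standard error, and a feature was called at an adjusted p under 0.05 (limma, Benjamini-Hochberg over all features).

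The label was checked against the 4 luminal arrays, beside which basal lists were mostly higher and luminal lists in part lower in CD24medCD49fmed. Against those arrays, 871 features were called higher, 29.7% of those tested, and 931 were called lower, 31.8%. Of the 17 basal keratins and regulators in the table, 15 were called higher, with a median difference of 3.08. All 15 smooth muscle contractile genes in the table were called higher, with a median of 2.81, as were 13 of 14 basement membrane genes, with a median of 2.78. All 15 luminal progenitor genes were called lower, with a median difference of -2.43, and so were 7 of 12 shared luminal genes, 4 of 7 milk genes and 7 of 9 hormone sensing genes. The authors had filtered the values on a 4-fold range between arrays. Genes that differ between luminal and basal arrays pass that filter partly by this same contrast, so these counts are a weak check of the label. The luminal keratin Krt19 was not called (difference -0.60, adjusted p = 0.517 in limma), and its value of 1.45 in CD24medCD49fmed replicate 3 lay above 3 of the 4 luminal arrays. None of the 16 endothelial markers was in the table, and of 16 leukocyte and 9 erythroid markers it held 1 each. The leukocyte marker Lcp1, an actin bundler, had means of -0.81 in CD24medCD49fmed, -0.53 in Thy-1+ and -0.77 in Thy-1- arrays. Hba-a2, an alpha globin, had means of 0.95, 0.82 and 0.29 in the same order.

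The 6 basal arrays did not group by population. Over all features, CD24medCD49fmed replicate 2 correlated with Thy-1+ replicate 1 at r = 0.82 and with its own replicate 3 at r = 0.64, and the Thy-1+ pair correlated at r = 0.43. These correlations are descriptions, since the arrays share their features and their centring. Markers of epidermal keratinocytes, the cells of skin, set the same pair apart. The median of the 10 epidermal genes was 1.58 in CD24medCD49fmed replicate 2 and 1.99 in Thy-1+ replicate 1, and between -0.73 and -0.04 in the other 4 basal arrays. CD24medCD49fmed replicate 2 also had the lowest shared luminal median of the 6 arrays, -1.48 against -0.05 in replicate 3. The call and the list medians described at most length below are therefore also given without both of these arrays. The basal arrays also differed as wholes. Over all features the median was -0.295 in Thy-1- replicate 1 and between 0.00 and 0.07 in the other basal arrays. The standard deviation ran from 0.50 in Thy-1+ replicate 2 to 0.91 in CD24medCD49fmed replicate 2. Values below are not corrected for this except where a scaling is named.

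Against the CD24medCD49fhigh populations together, 1 of 2932 features was called, 0.0341%, and it was a probe set that the annotation does not name (1423253_at). Its values were 3.23 and 2.83 in the CD24medCD49fmed arrays, 0.56 and 0.64 in Thy-1+, and 0.36 and 0.28 in Thy-1- arrays. Both CD24medCD49fmed arrays lay above every other basal array, by 2.20 on the log2 scale at the narrowest. The difference was 2.57 ± 0.43 (adjusted p = 0.0174), or 5.94-fold. Leaving out any 1 of the 6 basal arrays kept the difference between 2.37 and 2.77 and ended the call, with adjusted p from 0.15 to 1.00, and without both arrays named above it was 2.35. The call was also lost under quantile normalisation (adjusted p = 0.0938).

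No named gene was called in that comparison. Over all features 1604 differences were above 0 and 1328 below, the background for the counts of signs in the lists below. The genes of a list share the same arrays, so their signs are not independent. At an unadjusted p under 0.05 there were 21 features higher, 0.716%, and 31 lower, 1.06%. Both shares were lower than that threshold gives by chance when nothing differs, so they are a low background for the lists below. Both CD24medCD49fmed arrays lay above all 4 others in 86 features (2.93%), 64 of them named, and below all 4 in 123 features (4.2%), 113 of them named. Each share was lower than interchangeable array labels would give. Separate arrays are therefore by themselves no evidence of a difference. The named genes with non-overlapping arrays were also set against luminal cells, where 29.7% of all features were called higher and 31.8% lower. Of the 113 named genes below the CD24medCD49fhigh arrays, 86 were also called lower than in luminal cells and 3 higher. Of the 64 above, 38 were called higher than in luminal cells and 4 lower. Both comparisons use the same CD24medCD49fmed arrays, so these counts are not independent of each other. The filter on a 4-fold range between arrays also favours genes that differ between luminal and basal arrays. In bulk samples of sorted cells, fewer cells of a type and less RNA per cell cannot be told apart.

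With single populations, no feature was called against Thy-1+ arrays (0.0%; 46 at an unadjusted p under 0.05), and 3 were called against Thy-1- arrays, 0.102%, all higher in CD24medCD49fmed. These were 1423253_at, a second unnamed probe set (1444499_at) and Col3a1, a fibrillar collagen of connective tissue. Col3a1 was 2.14 and 1.47 in CD24medCD49fmed, 2.21 and 2.48 in Thy-1+, and -0.84 and -1.05 in Thy-1- arrays, so that the CD24medCD49fmed arrays were the middle of the 3 populations. Its difference from Thy-1- was 2.75 ± 0.50 (adjusted p = 0.0192). All 3 calls were lost under quantile normalisation and when any 1 of the 6 basal arrays was left out. The probe set 1444499_at was also lowest in the Thy-1- arrays, with 1.72 and 2.24 in CD24medCD49fmed, 1.06 and 1.82 in Thy-1+, and -1.04 and -0.80 in Thy-1- arrays. Unlike Col3a1, it had its highest mean in CD24medCD49fmed.

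Among the named genes whose arrays did not overlap, the one with the smallest p was Mbp, which encodes myelin basic protein, a structural protein of the myelin sheath. Mbp was 2.71 and 1.91 in CD24medCD49fmed, 0.91 and 1.42 in Thy-1+, and -0.03 and 0.12 in Thy-1- arrays. The 3 populations stood in 1 order without overlap, with means of 2.31, 1.16 and 0.04. The difference was 1.71 ± 0.44, or 3.27-fold (adjusted p = 0.403 in limma), and the 6 probe sets of Mbp gave differences from 1.42 to 1.91.

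Bcas1, which marks oligodendrocytes as they begin to myelinate, was 1.56 and 0.86 in CD24medCD49fmed, -0.36 and -0.42 in Thy-1+, and -0.55 and -0.29 in Thy-1- arrays (difference 1.61 ± 0.44). Here the 4 CD24medCD49fhigh arrays lay close together and both Thy-1 fractions were alike in mean, at -0.39 and -0.42. Gatm, the enzyme of the first step of creatine synthesis, was 1.73 and 0.89, then 0.13 and 0.72, then -1.07 and -0.57 in the same order (1.50 ± 0.45). Gatm thus showed the graded order of Mbp, with a small gap between CD24medCD49fmed replicate 3 and Thy-1+ replicate 2.

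The other 7 of the 10 leading higher genes had differences from 0.81 to 1.25, none called. Dusp15, a phosphatase known from oligodendrocytes, had means of 0.95, -0.04 and -0.42 in CD24medCD49fmed, Thy-1+ and Thy-1- arrays. Qk, an RNA-binding protein that acts on myelin transcripts in glia, had means of 1.23, 0.65 and 0.19, and Sema3g, a secreted semaphorin, 0.93, -0.04 and -0.03. Endod1 had means of 0.79, -0.19 and -0.69, and Frmd4b, a scaffold protein of the cell cortex, 0.48, -1.11 and -0.42. Eid3 had means of 0.78, -0.02 and -0.13. Ugt8a, the last enzyme of galactosylceramide synthesis in myelin, is described with its list below.

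**Figure D1:**
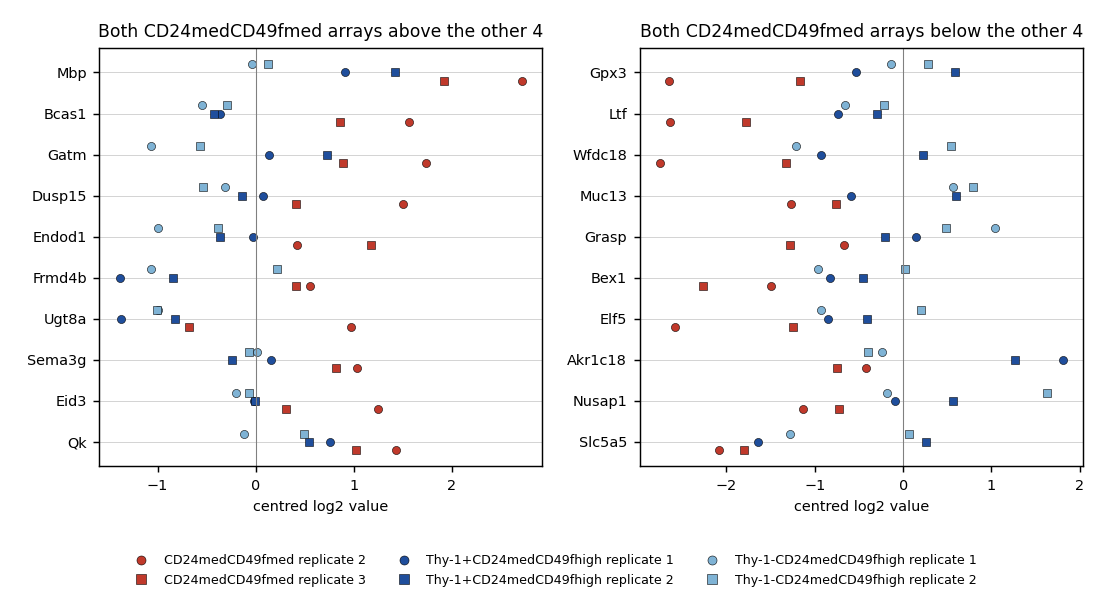
Centred log2 values (horizontal axes) of the 10 named genes with the smallest unadjusted p among those whose 2 CD24medCD49fmed arrays lay above (left) or below (right) all 4 CD24medCD49fhigh arrays; each point is 1 array, coloured by population, with the symbol showing the replicate. No gene shown was called; Bcas1 shows the widest gap on the left, and in most genes on the right CD24medCD49fmed replicate 2 is the lowest point.

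Gpx3, a secreted glutathione peroxidase, had the smallest p among the lower genes. It was -2.65 and -1.17 in CD24medCD49fmed, -0.54 and 0.59 in Thy-1+, and -0.13 and 0.28 in Thy-1- arrays, a difference of -1.96 ± 0.50 (adjusted p = 0.403 in limma). The 2 CD24medCD49fmed arrays differed from each other by more than the CD24medCD49fhigh arrays did, and both were below them. Muc13, a transmembrane mucin, had means of -1.02, 0.00 and 0.68 in CD24medCD49fmed, Thy-1+ and Thy-1- arrays, and Grasp, a scaffold for membrane receptors, had means of -0.97, -0.03 and 0.76. Bex1, known from neurons, had means of -1.88, -0.64 and -0.47. Slc5a5, the iodide transporter of thyroid and lactating gland, had means of -1.94, -0.69 and -0.60.

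Akr1c18, which inactivates progesterone, was different in kind. It was -0.42 and -0.74 in CD24medCD49fmed and -0.24 and -0.40 in Thy-1- arrays, but 1.81 and 1.27 in Thy-1+ arrays. Its separation from the Thy-1- arrays was 0.023 at its narrowest, so the difference of -1.19 ± 0.44 came almost wholly from the Thy-1+ side.

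Myelin genes are the signature products of Schwann cells and oligodendrocytes, which wrap axons in lipid-rich membrane. Of 19 myelin genes listed, 7 were in the table, and all 7 differences were above 0, with a median of 1.02 beside 0.04 over all features. None was called, 4 had an unadjusted p under 0.05, and 2 (Mbp and Ugt8a) had arrays that did not overlap. Over all features 0.716% were higher at that p and 2.93% had both CD24medCD49fmed arrays above the others. Under quantile normalisation 6 of the 7 were above 0, with Egr2 at -0.023. The study drew up a gene set for its myoepithelial gate, with FVB arrays among its data, and 4 of the 7 genes are in it, so the direction of this list is not independent evidence. The list median was 1.52 and 0.82 in CD24medCD49fmed, 0.86 and 0.61 in Thy-1+, and 0.38 and 0.28 in Thy-1- arrays, and it overlapped between CD24medCD49fmed and Thy-1+.

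Ugt8a was 0.97 and -0.68 in CD24medCD49fmed, -1.37 and -0.82 in Thy-1+, and -0.995 and -1.01 in Thy-1- arrays. Only replicate 2 stood well clear, and Ugt8a was the 1 myelin gene not called higher in CD24medCD49fmed than in luminal cells, with luminal values from 0.24 to 1.96. Mal, a membrane protein of myelin and of epithelial apical transport, was 1.52 and 0.71, then 0.21 and 0.73, then -0.77 and -0.48 (1.19 ± 0.44). Pmp22, a tetraspan protein of peripheral myelin, was 2.46 and 1.45, then 1.60 and 0.99, then 0.90 and 0.28 (1.02 ± 0.46). In both genes 1 Thy-1+ array overlapped CD24medCD49fmed replicate 3, and the Thy-1- arrays were lowest. Drp2, which anchors Schwann cell membrane, had means of 1.18, 0.64 and 0.35 in CD24medCD49fmed, Thy-1+ and Thy-1- arrays. Cnp, a myelin phosphodiesterase, had means of 0.94, 0.73 and 0.35, and Egr2, the transcription factor that switches on myelination, had means of 0.85, 0.67 and 0.73.

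Without CD24medCD49fmed replicate 2 the myelin median was 0.37, without replicate 3 it was 1.52, and without replicate 2 and Thy-1+ replicate 1 it was 0.53. Its median difference was 0.65 against Thy-1+ and 1.14 against Thy-1- arrays, which share the CD24medCD49fmed arrays. Over all features these medians were -0.054 and 0.115.

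Genes of Schwann cell and neural crest identity did not share the pattern of the myelin list. All 11 in the table overlapped between the groups, 7 differences were above 0, and the median was 0.096, which turned to -0.076 under quantile normalisation. Sorted by population, the list median was 0.62 and 0.49 in CD24medCD49fmed, 1.04 and 1.13 in Thy-1+, and -0.14 and 0.03 in Thy-1- arrays, so that CD24medCD49fmed lay between the other 2 populations. Cdh19, a cadherin of Schwann cell precursors, was 0.27 in both CD24medCD49fmed arrays, 1.19 and 2.48 in Thy-1+, and -0.65 and -0.47 in Thy-1- arrays. Kcna1, an axonal potassium channel that is also found in glia, was 1.31 and 1.11, then 1.01 and 1.56, then -0.67 and -0.34. Cdh19 was higher in Thy-1+ than in CD24medCD49fmed arrays, whereas Kcna1 overlapped between them. Mbp was highest in CD24medCD49fmed, and Mal had its highest mean there but overlapped with Thy-1+. The part of glial cells in the myelin values was not tested.

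**Figure D2:**
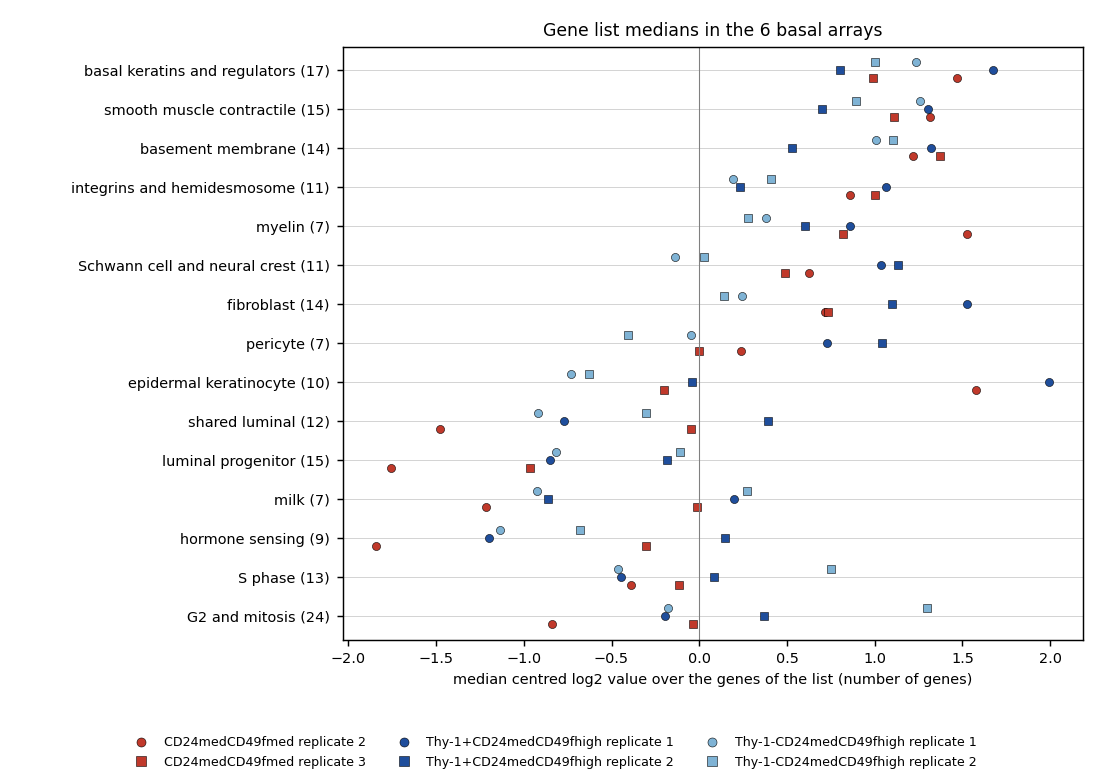
Median centred log2 value (horizontal axis) of 15 gene lists in each of the 6 basal arrays, with the number of genes of each list in brackets; colours give the population and symbols the replicate. Luminal progenitor is a list in which both CD24medCD49fmed arrays lie below the other 4, at -1.76 and -0.97, and the epidermal list is high in 1 array each of CD24medCD49fmed and Thy-1+.

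Luminal progenitor genes mark the immature luminal cells that make alveoli in pregnancy, and they were the list with the lowest median. Of 15 in the table, 14 differences were below 0, with a median of -0.94. None was called, 6 had an unadjusted p under 0.05, and 5 had both CD24medCD49fmed arrays below all others (Ltf, Wfdc18, Elf5, Cd14 and Kit). Over all features these shares were 1.06% and 4.2%. The list median was -1.76 and -0.97 in CD24medCD49fmed, -0.85 and -0.19 in Thy-1+, and -0.82 and -0.11 in Thy-1- arrays, with no overlap. Against luminal arrays, whose list medians were 0.72 to 1.55, all 3 basal populations were low.

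Ltf, the milk protein lactoferrin, was -2.64 and -1.78 in CD24medCD49fmed, -0.74 and -0.30 in Thy-1+, and -0.66 and -0.22 in Thy-1- arrays, a difference of -1.73 ± 0.46. Every CD24medCD49fmed value was at least 1.04 below every other basal value on the log2 scale, and in the luminal arrays Ltf lay between 1.11 and 2.16. Wfdc18, a secreted protein of the whey acidic protein family, was -2.75 and -1.32, then -0.93 and 0.22, then -1.21 and 0.55 (-1.70 ± 0.55). Elf5, the transcription factor that drives alveolar fate, was -2.58 and -1.25, then -0.85 and -0.40, then -0.93 and 0.20 (-1.42 ± 0.50). The gap between CD24medCD49fmed replicate 3 and the nearest Thy-1- array was 0.11 for Wfdc18 and 0.32 for Elf5.

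Cd14, a receptor for bacterial lipopolysaccharide, was -2.33 and -1.22, then -0.71 and -0.67, then -1.19 and -0.11 in the same order. Kit, the stem cell factor receptor, had means of -1.49, -0.63 and -0.47. Tnfaip2, a gene induced by inflammatory cytokines, had a difference of -1.96 ± 0.62 but overlapped. It was -3.03 and -1.16 in CD24medCD49fmed, -2.07 and 0.78 in Thy-1+, and 0.22 and 0.55 in Thy-1- arrays. Aldh1a3, which makes retinoic acid, had means of -1.34, -0.57 and 0.42 and overlapped through a Thy-1+ value of -1.78. In both genes it was Thy-1+ replicate 1 that reached into the CD24medCD49fmed range. Cd14 and Kit, like Aldh1a3, were named after their values were seen.

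The median of the luminal progenitor list was -0.60 without CD24medCD49fmed replicate 2, -1.45 without replicate 3, -0.61 without Thy-1+ replicate 2 and -0.65 without replicate 2 and Thy-1+ replicate 1.

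Other luminal lists leaned the same way with smaller medians. Of 12 shared luminal genes 10 differences were below 0 (median -0.37), of 7 milk genes all 7 (median -0.385) and of 9 hormone sensing genes 8 (median -0.32). Without CD24medCD49fmed replicate 2 and Thy-1+ replicate 1 the medians were -0.022 for shared luminal, 0.41 for milk and -0.0051 for hormone sensing genes, so these lists rested on those arrays. In each of these lists 1 gene had both CD24medCD49fmed arrays lowest, beside 4.2% of all features, which in lists this short is no result about the list. Epcam, an epithelial adhesion protein, was -1.31 and -0.87 in CD24medCD49fmed, -0.74 and 0.03 in Thy-1+, and -0.60 and -0.23 in Thy-1- arrays. Xdh, needed for milk fat secretion, had means of -0.89, -0.18 and -0.46, and Tnfsf11, the RANK ligand of progesterone signalling, had means of -0.99, -0.55 and -0.76. Ehf, an epithelial ETS factor, had means of -1.60, -0.77 and -0.82, and Pgr, the progesterone receptor, -1.26, -0.62 and -0.87, and both overlapped. The luminal keratins gave no steady value. Krt18 was -1.92 and 0.33 in CD24medCD49fmed, -1.02 and 0.60 in Thy-1+, and -1.14 and -0.31 in Thy-1- arrays. Krt19 was -1.89 and 1.45, then -0.86 and 1.56, then -1.75 and -0.04, so that its spread within populations was larger than any difference between them.

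With all arrays kept, genes of mitosis were below 0 throughout the list. Of 24 G2 and mitosis genes in the table all 24 differences were negative, from -1.41 to -0.20, with a median of -0.68, none was called and 3 had an unadjusted p under 0.05, beside 1.06% of all features. The list median was -0.84 and -0.04 in CD24medCD49fmed, -0.20 and 0.37 in Thy-1+, and -0.18 and 1.30 in Thy-1- arrays. The Thy-1- replicate 2 array was the highest by 0.93, and CD24medCD49fmed replicate 3 lay above 2 of the 4 CD24medCD49fhigh arrays. Without Thy-1- replicate 2 the median difference was -0.29, and without Thy-1- replicate 1 it was -1.03. Without CD24medCD49fmed replicate 2 it was -0.26, and without replicate 3 it was -1.08. Without replicate 2 and Thy-1+ replicate 1 it was -0.41, with 21 genes below 0 and 3 above.

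In 4 of the 24 mitotic genes both CD24medCD49fmed arrays were lowest, beside 4.2% of all features. Nusap1, which bundles spindle microtubules, was -1.14 and -0.72 in CD24medCD49fmed, -0.10 and 0.56 in Thy-1+, and -0.18 and 1.63 in Thy-1- arrays (-1.41 ± 0.52). Top2a, the topoisomerase of dividing cells, was -0.95 and -0.17, then 0.12 and 0.76, then -0.02 and 1.79 (-1.22 ± 0.51). Spc25, a kinetochore protein, had means of -0.80, 0.25 and 0.49, and Bub1, a spindle checkpoint kinase, had means of -0.57, -0.05 and 0.78. The gap from CD24medCD49fmed replicate 3 to the nearest CD24medCD49fhigh array was 0.15 in Top2a, 0.10 in Spc25 and 0.046 in Bub1. S phase genes were weaker still. Of 13, 12 differences were below 0, with a median of -0.24, and none had separate arrays. Dscc1, a cohesion factor of replication, had means of -0.65, -0.20 and 0.29, and Rfc4, a clamp loader subunit, -0.76, -0.44 and 0.03.

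**Figure D3:**
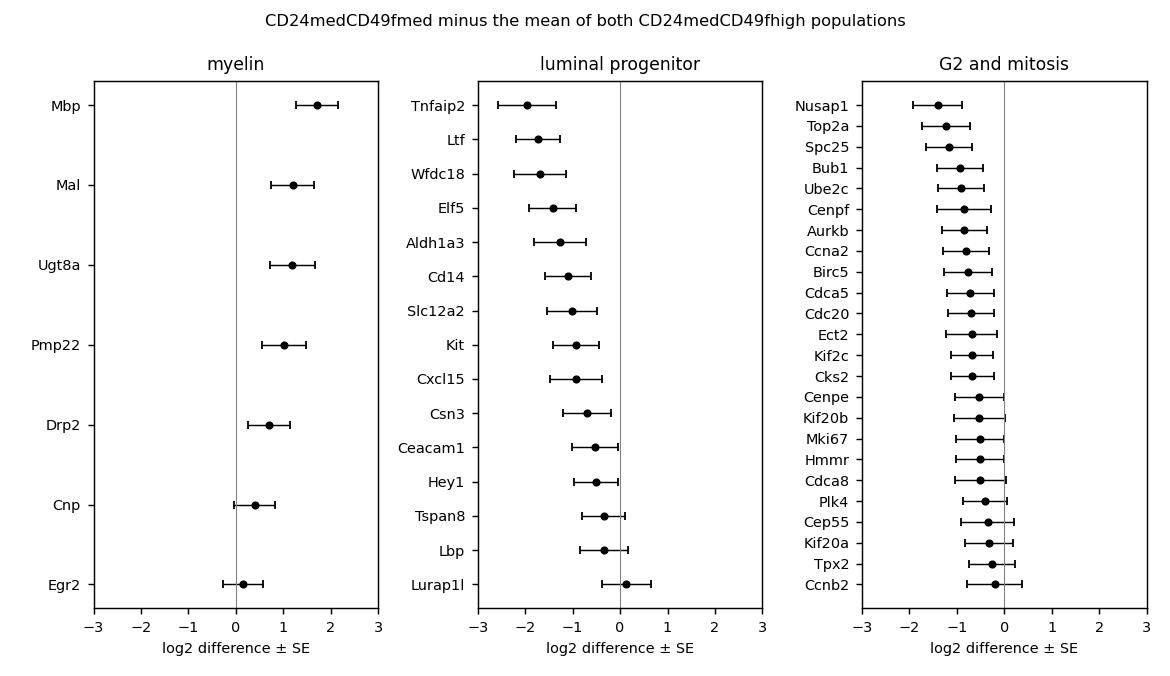
Log2 difference between CD24medCD49fmed and both CD24medCD49fhigh populations (horizontal axis) for every myelin, luminal progenitor, and G2 and mitosis gene in the table; points are estimates and bars are 1 standard error on each side. All 7 myelin genes lie above 0, 14 of 15 luminal progenitor genes and all 24 mitotic genes lie below 0, and no single gene was called.

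The contractile and basal genes that define myoepithelium had small median differences between the gates. The median difference was 0.018 for 17 basal keratins and regulators, with 9 above 0, and 0.14 for 15 smooth muscle contractile genes, with 13 above 0. Under quantile normalisation these medians turned to -0.096 and -0.016. Without CD24medCD49fmed replicate 2 and Thy-1+ replicate 1 they were larger, at 0.15 and 0.27. No member of either list was called or had separate arrays. Acta2, smooth muscle actin, was 1.32 and 0.97 in CD24medCD49fmed, 1.17 and 0.83 in Thy-1+, and 1.12 and 1.26 in Thy-1- arrays, a difference of 0.05 ± 0.42, whose sign turned when array medians were set to 0 (-0.0011) and under quantile normalisation (-0.10). Krt14, a basal keratin, was 2.32 and 1.69, then 2.47 and 1.28, then 2.01 and 1.00 (0.31 ± 0.47). Both genes had all 6 values above 0 and overlapped fully. Krt17, a further basal keratin, had means of 1.42, 1.84 and 1.87, and Smtn, a smooth muscle cytoskeletal protein, had means of 1.32, 0.98 and 0.70. Lgr5, a Wnt co-receptor of stem cells in several tissues, was 0.80 and -1.02 in CD24medCD49fmed, 2.14 and 0.65 in Thy-1+, and 0.63 and 0.05 in Thy-1- arrays, so that its difference of -0.98 ± 0.55 rested on replicate 3.

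Genes of the contact with the basement membrane were above 0 as lists, and none was called. All 14 basement membrane genes had differences between 0.00 and 0.43, with a median of 0.23. With array medians set to 0, 12 of the 14 were above 0. Lamb1, a laminin chain, had means of 1.45, 0.86 and 1.19 in CD24medCD49fmed, Thy-1+ and Thy-1- arrays, and Lamc1, its partner chain, had means of 1.28, 0.83 and 0.89. All 11 integrin and hemidesmosome genes had differences between 0.00 and 0.86, with a median of 0.26, and 8 were above 0 under quantile normalisation. Without CD24medCD49fmed replicate 2 and Thy-1+ replicate 1 the medians were larger, at 0.52 for basement membrane and 0.62 for integrin and hemidesmosome genes. The median of this list was 0.86 and 1.00 in CD24medCD49fmed, 1.06 and 0.23 in Thy-1+, and 0.19 and 0.41 in Thy-1- arrays.

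Itga6, which encodes CD49f, was not lower in the gate with less CD49f at the surface. It was 1.15 and 1.36 in CD24medCD49fmed, 1.17 and 0.43 in Thy-1+, and 0.64 and 0.65 in Thy-1- arrays, a difference of 0.53 ± 0.43 (adjusted p = 1.00 in limma). The array values are of RNA, whereas the sort was on protein. Itgb1, the integrin β1 chain, was 1.22 and 0.85, then 0.76 and 0.23, then 0.19 and 0.24, the 1 gene of its list with both CD24medCD49fmed arrays highest, beside 2.93% of all features (0.68 ± 0.49). Plec, the linker of hemidesmosomes to keratin, was 0.34 and 1.72, then 0.99 and 0.26, then -0.37 and -0.22, and overlapped. Cd24a, the gene of CD24, was not in the table.

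Thy1 was 0.67 and -0.36 in CD24medCD49fmed, 2.59 and 0.58 in Thy-1+, and 0.23 and -0.54 in Thy-1- arrays. The Thy-1+ arrays had the highest mean, at 1.59 against 0.16 and -0.16, and Thy-1+ replicate 2 was below CD24medCD49fmed replicate 2. Of the genes that the study names for transplantable or progenitor cells, Aldh1a1, a retinaldehyde dehydrogenase, was 0.56 and 0.17 in CD24medCD49fmed, 1.70 and 2.54 in Thy-1+, and -0.20 and 1.75 in Thy-1- arrays (-1.09 ± 0.51, adjusted p = 1.00 in limma). Procr, a surface receptor and Wnt target, was -0.05 and -0.01, then 1.10 and 0.94, then 0.29 and 0.39 (-0.71 ± 0.43). Procr was lowest in both CD24medCD49fmed arrays and its replicates lay within 0.153 of each other in every population. Rarres2, the adipokine chemerin, had means of 0.53, 1.55 and -0.16. Tbx3, a T-box factor of hormone-sensing cells, had means of -0.66, -0.17 and -0.33, and Cdkn1a, the cell cycle inhibitor p21, 0.65, 0.68 and 0.04. Both overlapped. By real-time PCR the study reports Tbx3 in all its sorted populations but Thy-1+, and a low Cdkn1a there. In these arrays the Thy-1+ mean was not the lowest for either gene, though centred array values hold no level and are an unlike measure. Krt14, Acta2, Krt18, Krt19 and Elf5, which the study also names, are given above, and Rarres1 was not in the table.

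Signalling lists showed few separate genes, which are set beside 4.2% of all features with both CD24medCD49fmed arrays lowest. In the Wnt pathway 4 of 10 differences were above 0 (median -0.11), and Procr and Rspo1 had both CD24medCD49fmed arrays lowest. Rspo1, a secreted amplifier of Wnt signals, had means of -0.97, -0.24 and -0.58, and its narrowest gap was 0.054. Wnt5b, a secreted Wnt ligand, had means of -1.05, -0.36 and -0.34 and overlapped. The 3 Notch genes had a median of 0.12 (-0.013 under quantile normalisation), with 1, the Notch target Hey2, lowest in both CD24medCD49fmed arrays (means -1.02, -0.66 and -0.57). The 4 FGF response genes, 1 of them in the gene set of the study, had a median of 0.45, the 7 TGF-beta and BMP response genes 0.23, the 9 interferon response genes -0.093 and the 7 cholesterol and fatty acid synthesis genes -0.24. Msmo1, an enzyme of sterol demethylation, was the gene with separate arrays in the last list, with means of -0.73, -0.16 and -0.08.

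Of 7 immediate early genes, which respond within minutes to handling or growth factors, 6 differences were above 0, with a median of 0.24. In 3 of them, Egr3, Ccn1 and Nr4a1, both CD24medCD49fmed arrays were highest, beside 2.93% of all features. Egr3, a zinc finger factor, was 1.40 and 1.56 in CD24medCD49fmed, 0.88 and 0.53 in Thy-1+, and 0.96 and 1.05 in Thy-1- arrays. Ccn1, a matrix protein, was 0.55 and 0.52, then 0.50 and 0.25, then 0.29 and 0.18, and Nr4a1, an orphan nuclear receptor, was 0.52 and 0.58, then 0.51 and 0.27, then 0.39 and 0.28. In Ccn1 and Nr4a1 the gap to the next array was 0.017 and 0.011, under the spread within populations. Egr3, Ccn1, Nr4a1, Rspo1, Hey2, Msmo1, Xdh, Tnfsf11 and Col6a3 count as separate by their arrays and not by a small p. The same holds for Itgb1, Epcam, Procr, Qk, Eid3, Bub1 and Kit, whose unadjusted p in limma was above 0.05.

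The fibroblast and pericyte lists placed CD24medCD49fmed between the Thy-1 fractions. The fibroblast median was 0.72 and 0.73 in CD24medCD49fmed, 1.53 and 1.10 in Thy-1+, and 0.24 and 0.14 in Thy-1- arrays, and the pericyte median was 0.24 and -0.0037, then 0.73 and 1.04, then -0.048 and -0.405. In both lists each CD24medCD49fmed value lay below both Thy-1+ values and above both Thy-1- values. Against both populations together the median differences were -0.028 for 14 fibroblast genes, 1 of them in the gene set of the study, and -0.28 for 7 pericyte genes, and the median difference of the 4 adipocyte genes was 0.026. The adipocyte median was 1.18 in CD24medCD49fmed replicate 2 and -0.12 in replicate 3, the highest and the lowest of the 6 basal arrays. The 3 median differences changed sign in at least 1 scaling or without the 2 arrays named above. Col6a3, a collagen of the fibroblast list, was lowest in both CD24medCD49fmed arrays, beside 4.2% of all features, with means of -1.21, -0.42 and -1.05. Its difference from Thy-1- arrays was only -0.16. It was called lower than in luminal cells, with means of 1.76 in CD24highCD49fmed and 0.91 in CD24medCD49f-/low arrays. The pericyte receptor Pdgfrb had means of 0.67, 1.70 and 0.57, and Rgs5, a G protein regulator of pericytes, had means of 0.33, 1.31 and 0.13. The part of stromal cells in the values of Col3a1 was not tested.

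The 10 epidermal genes, 3 of them in the gene set of the study for its myoepithelial gate, had a median difference of 0.48, with 9 above 0 and none called. Krt77, a keratin of skin, was 3.17 and 0.36 in CD24medCD49fmed, 3.60 and -0.20 in Thy-1+, and -0.84 and -0.87 in Thy-1- arrays. Krtdap, a secreted keratinocyte protein, was 2.58 and 0.32, then 3.04 and -0.56, then -1.14 and -0.40. Krt1 was 2.86 and -0.40, then 3.32 and 0.24, then -1.11 and -0.91, and Krt10, its partner in differentiated epidermis, was 2.09 and 0.12, then 2.30 and 0.21, then -0.42 and -0.40. In each of the 4 genes a single array of CD24medCD49fmed and a single array of Thy-1+ were high, and the replicates of those populations differed by up to 3.81. Without CD24medCD49fmed replicate 2 the list median was -0.39 and without replicate 3 it was 1.36. Without Thy-1+ replicate 1 it was 1.04, without Thy-1+ replicate 2 it was 0.056, and without CD24medCD49fmed replicate 2 and Thy-1+ replicate 1 it was 0.15.

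**Figure D4:**
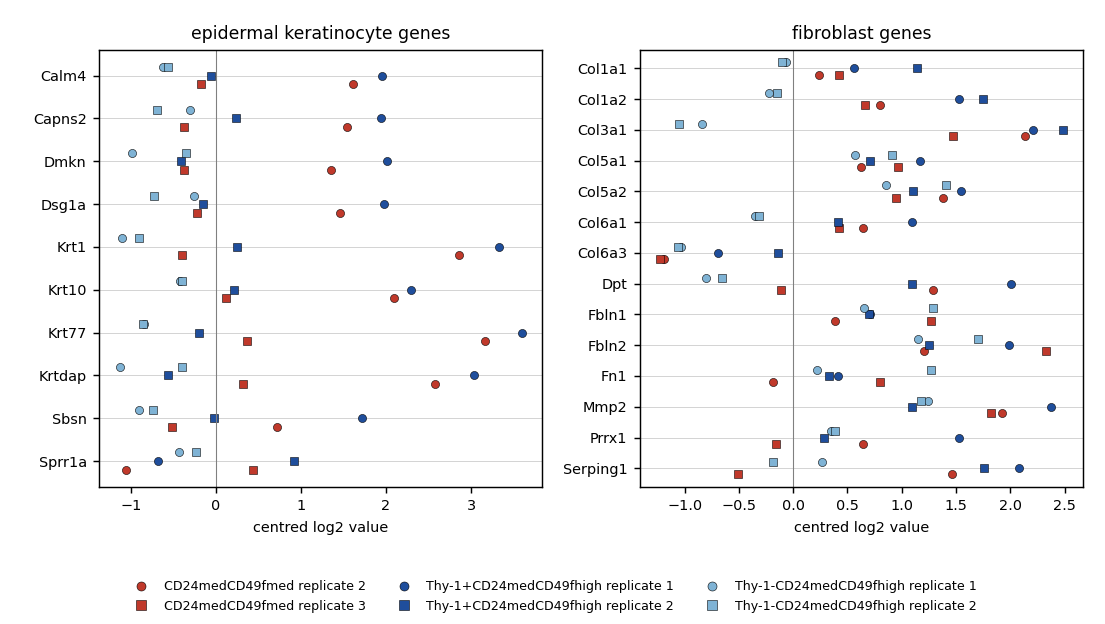
Centred log2 values (horizontal axes) of every epidermal keratinocyte gene (left) and fibroblast gene (right) in the table in each of the 6 basal arrays, coloured by population with the symbol showing the replicate. Most epidermal genes are high in CD24medCD49fmed replicate 2 and Thy-1+ replicate 1, and Col3a1 is high in all 4 CD24medCD49fmed and Thy-1+ arrays, from 1.47 to 2.48.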

How the data were processed

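RNA of 10 sorted mouse mammary samples was measured on Affymetrix whole-genome mouse arrays after 2-cycle labelling. The deposited values are log2 intensities that the authors normalised by RMA across the arrays (the labels name RMA and GCRMA, no version given), filtered on a minimum level and a 4-fold range between arrays, and centred per probe set. They hold differences, not levels, and genes that varied less were not analysed here. Signal over background cannot be read from them, and precision is set by how few arrays there are.

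Of 3663 probe sets, 3291 had 1 gene symbol in the platform annotation, 75 several and 297 none. Probe sets with 1 symbol were averaged per gene, the other 372 were tested alone. All 10 arrays entered a linear model with a mean per population in limma 3.58.1 (lmFit, eBayes; R 4.3.3), with two-sided tests adjusted by Benjamini-Hochberg over the 2932 features and called under 0.05. The model left 5 residual degrees of freedom and moderation added 16.5. The script was tested on simulated data.

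The members, gene lists and tests were chosen with earlier results of these data known. Genes were named by rule: the 10 with the smallest p per direction whose arrays did not overlap, up to 4 of the smallest p per list (of which the text gives some), the sort genes and the genes the study names. Others were named after their values were seen. Whether replicate numbers pair the arrays is not settled by the titles, and the correlations in the closing section cannot decide it. The alternatives tried were quantile normalisation, array medians set to 0, a replicate block, robust moderation, the 6 basal arrays alone, array weights, single probe sets, a minimum difference of 1, both pairwise calls, rank products and each array left out. Leaving out CD24medCD49fmed replicate 2 and Thy-1+CD24medCD49fhigh replicate 1 together, and taking rank product p-values from permutations, were chosen after seeing the data. Authors' set memberships were counted, with no value taken.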

Additional observations from a re-analysis of the deposited data

Results flagged for a closer look

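Among the 4 CD24medCD49fhigh arrays, 1 of 24 list medians and 3 of 78 genes had an array far from the other 3, where chance gives about 1 in 20. The distant array was Thy-1+CD24medCD49fhigh replicate 1 each time. The median of the TGF-beta and BMP response list was 1.30 there and 0.57 to 0.63 in the other 3. Muc13 was -0.59 there and 0.57 to 0.79 in the others. Itgb1 was 0.76 there and 0.19 to 0.24 in the others. Krt77 was 3.60 there and -0.87 to -0.20 in the others. These arrays were kept in every value above, and the cause was not tested.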

How the results depend on the processing

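The 1 call in the main comparison, the unnamed probe set 1423253_at, was lost under quantile normalisation (0 calls) and when any basal array was left out. It stayed called with the replicate block, where its difference was 2.74. Requiring calls in both pairwise differences could only give 0 calls, since there were 0 against Thy-1+ arrays. Array weights gave 2 calls in the main comparison, 1 against Thy-1+ and 8 against Thy-1- arrays. Against Thy-1- arrays, quantile normalisation gave 0 calls, robust moderation 5 and the 6 basal arrays alone 7. Rank products, the test of the study, was planned with gamma p-values and gave 309 features at p under 0.01 in either direction against both populations (140 higher, 169 lower), 171 against Thy-1+ and 202 against Thy-1-. The gamma distribution takes the pairs of arrays as independent although they share arrays. Permuting the values within each array, a form added after those counts were seen, gave 63, 55 and 73 features, where 58.6 are expected by chance. Leaving out each array in turn gave 0 to 1 calls in the main comparison, 0 to 1 against Thy-1+, 0 to 8 against Thy-1- and 829 to 2312 against luminal arrays. Without CD24medCD49fmed replicate 2 and Thy-1+CD24medCD49fhigh replicate 1 together there were 0 calls in each comparison among basal cells and 707 against luminal arrays. With 1 array left in a population, that array is assumed to vary like the others.

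Whether replicate numbers pair the arrays is not known. The deviations of arrays with the same number correlated at -0.51 between CD24medCD49fmed and Thy-1+, -0.18 between CD24medCD49fmed and Thy-1-, and 0.30 between the 2 Thy-1 fractions. With 2 arrays in a population their deviations mirror each other, so each pair of populations gives a single value and its opposite. These values can neither show nor exclude a pairing. CD24medCD49fmed shares only number 2 with the other populations, so with the replicate block it rested on that array. The block gave 19 calls in the main comparison (4 higher, 15 lower), 14 against Thy-1+, 16 against Thy-1- and 1130 against luminal arrays. Of the genes named, it called Gpx3 (-2.80), Wfdc18 (-2.87), Tnfaip2 (-3.21), Krt77 (3.23), Krtdap (2.93), Krt1 (2.82) and Krt19 (-2.65, opposite in sign to the main value). It also turned the sign of the uncalled Lgr5 (0.051), Krt17 (0.12), Lamc1 (-0.059), Plec (-0.10), Pdgfrb (0.11), Rgs5 (0.051), Thy1 (0.33), Nr4a1 (-0.10) and Rspo1 (0.026).

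Other reversals were in uncalled genes and the cause was not tested. Acta2 was -0.0011 with array medians set to 0 and -0.10 under quantile normalisation, where Egr2 was -0.023. Without both arrays named above, Acta2 was -0.036, Krt1 -0.015, Krt18 0.39 and Lcp1 0.017. With each array left out in turn, Krt14 ran from -0.0050 to 0.62, Acta2 from -0.12 to 0.22, Krt77 from -0.065 to 2.75, Krt10 from -0.30 to 1.67, Krt1 from -0.79 to 2.48, Pdgfrb from -1.23 to 0.31, Krt18 from -1.45 to 0.79, Krt19 from -1.62 to 1.72, Pgr from -1.10 to 0.061, Rarres2 from -0.34 to 0.0080 and Lcp1 from -0.64 to 0.32. The values of Mbp, Ltf and Nusap1 kept their sign under every alternative run.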
